A study of Rattus norvegicus with 8 samples.

Results

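The genes described here are the glucocorticoid receptor Nr3c1, the mineralocorticoid receptor Nr3c2, and 8 genes that lie downstream of them or govern access of the hormone, Fkbp5, Tsc22d3, Sgk1, Pdk4, Zbtb16, Klf9, Errfi1 and Hsd11b1. They were taken by gene name from the array (Sgk1 carries its older name, Sgk, there). All 10 were represented, by 18 of 41012 probes and by 27 of 43379 spots on each array outside the control spots. The RNA came from the medial thalamus of 8 male Sprague-Dawley rats of 277 g under urethane anaesthesia, each fitted with an inflatable tracheal cuff. For the occlusion group of 4 rats it was closed for 2 to 4 breaths and then opened for at least 15 breaths, over 10 min, and the brain was taken at once. In the control group of 4 rats, which had the same surgery, the cuff remained deflated throughout, with removal of the brain 70 min after the preparation. The time between preparation and removal in the occluded rats was not given in the sources used here. Urethane and surgery were common to both groups, and no unoperated or awake animals were part of these comparisons.

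Corticosteroids act in the brain through a pair of receptors of the nuclear receptor family, which wait in the cytoplasm in a complex with heat shock proteins. Once bound by hormone they move to the nucleus and alter transcription. The mineralocorticoid receptor has the higher affinity and is largely occupied at rest, while the glucocorticoid receptor fills as hormone rises in stress. Several targets, among them Fkbp5, Tsc22d3 and Sgk1, rise quickly in rodent brain after glucocorticoid exposure and are widely used as readouts of receptor activity. Here the occluded brains were taken at once after a protocol of 10 min. Whether that leaves time for a rise in these RNAs was not tested.

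Values are log2 ratios of the animal (Cy5) over a pool of RNA from all 8 animals (Cy3), after loess normalisation, and differences are occlusion minus control. A ratio therefore places an animal relative to the pool and is not an absolute level. No array had the dyes exchanged, so a probe's own dye effect shifts all 8 ratios alike and cancels in the difference between groups. No difference between occluded and control rats was called for any of the 10 genes. In limma, 0 of 10 passed an adjusted p of 0.05, as did 0 of 26981 genes tested on the array (0%). Over all 8 animals, 5 were higher and 5 lower after occlusion, with a median log2 difference of 0.023, where 50.2% of all genes had a difference above 0. At an unadjusted p under 0.05, 0 of 10 were called, against 3.12% of all genes. The groups overlapped for each of the 10, and 2.53% of all genes had groups that did not overlap.

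With 4 animals a group, the exact permutation test has 70 assignments and cannot give a two-sided p below 0.0286. The median standard error of a log2 difference was 0.097 over all genes. Because the tissue was analysed in bulk, fewer cells of a type and less RNA per cell cannot be told apart. The animal called control 3 stood apart from the rest, with a median correlation of -0.12 with the other arrays, against 0.16 to 0.32 for the remaining 7. Its mean over 6 cortical neuron markers was 1.64, against -1.04 to -0.35 elsewhere, and its mean over 5 of 6 thalamic relay markers that could be tested was -2.61, against -0.34 to 0.29. Its profile thus goes against the label of medial thalamus, and the difference of each of the 10 genes is given below with and without it. Without control 3, 9 of the 10 genes were higher after occlusion, Nr3c1 was lower, and their median was 0.18, where 49.7% of all genes were higher. Control 3 was the highest animal for 5 of the 10 and the lowest for 0, and leaving out the highest control raises a difference. The genes share the same animals, so their signs are not independent. All their confidence intervals but that of Errfi1 included 0. In limma, 0 of the 10 passed the adjusted threshold without control 3, against 0.00371% of all genes.

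**Figure D1:**
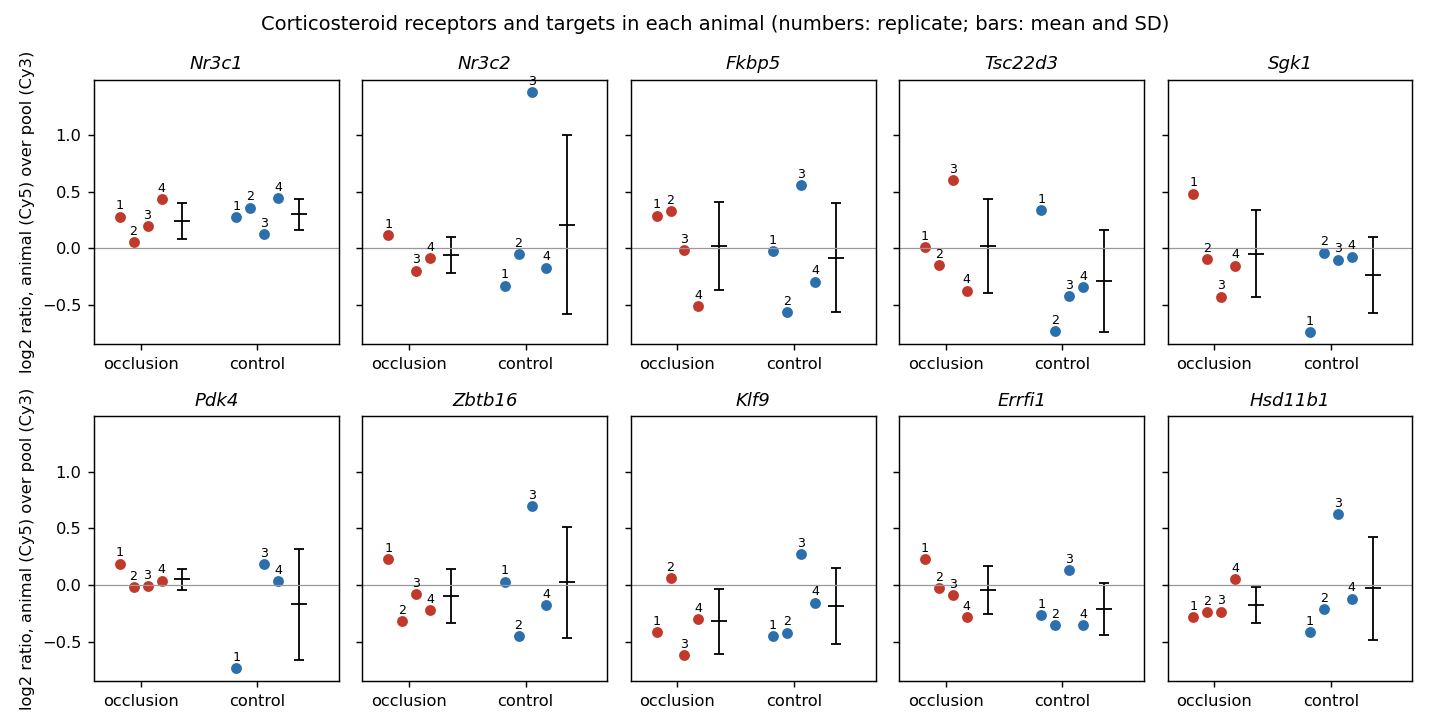
Log2 ratio of each animal over the pool for the 10 genes, with occlusion at the left and control at the right of each panel, points numbered by replicate, and the mean and SD drawn as bars. The groups overlap in every panel, and control 3 is the highest of the animals for Nr3c2, Fkbp5, Zbtb16, Klf9 and Hsd11b1.

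Nr3c1 encodes the glucocorticoid receptor, the ligand-activated factor that most of the other genes answer to. Its representative probe gave log2 ratios of 0.28, 0.053, 0.20 and 0.43 in occluded rats 1 to 4, and of 0.27, 0.36, 0.12 and 0.44 in control rats 1 to 4. Occlusion 2 was the lowest and control 4 the highest, with the groups covering much the same range. The difference was -0.059 ± 0.10 (SE; 95% confidence interval -0.29 to 0.17; limma adjusted p = 0.977, exact permutation p = 0.571), or 0.960-fold with an interval of 0.819 to 1.13. It was -0.12 without control 3, -0.12 without occlusion 4 and -0.011 without control 4, and it turned to 0.0041 without occlusion 2.

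This Nr3c1 probe (rn3 chr18:32406831-32406892, minus strand) is printed 10 times on each array, so its spot error can be read directly, while error of RNA preparation, labelling and hybridisation, which the 10 spots share, cannot. The SD among the 10 spots ran between 0.026 (occlusion 3) and 0.15 (control 2), with a pooled value of 0.082 and a standard error of 0.026 for the mean of 10 spots. The SD between animals, each on an array of its own, was 0.16 in occluded and 0.14 in control rats, and how much of it is array and labelling error was not tested. Among the 235 tested probes printed 10 times, the median pooled SD was 0.078. A second probe (rn3 chr18:32407198-32407257) gave -0.043 ± 0.087 (SE) and followed the first over the 8 animals with r = 0.74.

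**Figure D2:**
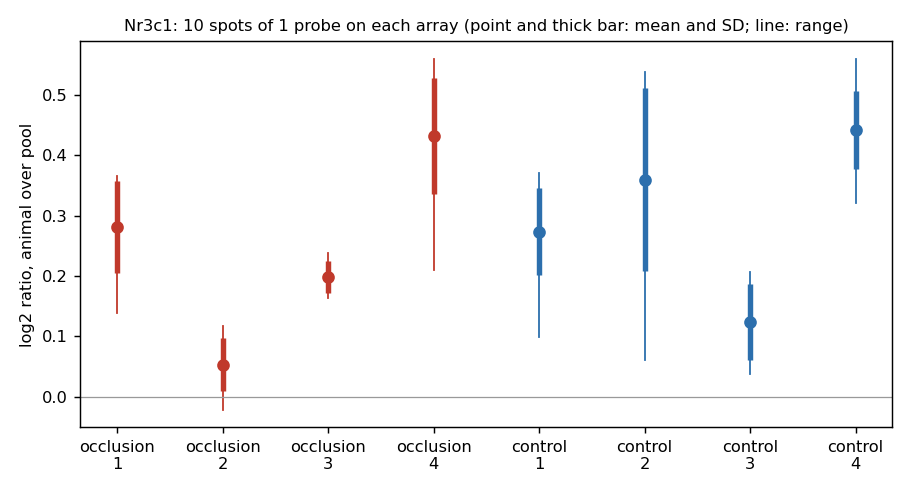
The 10 spots of the Nr3c1 probe on each array, as log2 ratio over the pool, with the mean as a point, the SD as a thick bar and the full range as a thin line. Occlusion animals are at the left and control animals at the right; occlusion 2 and control 3 lie lowest, while occlusion 4 and control 4 lie highest.

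All 8 ratios at the representative Nr3c1 probe were above 0, which was so for 6.87% of all genes, although the pool holds the same 8 animals. Not all of the animals can exceed an even mixture of themselves, so the zero point of this probe's ratio is offset on these arrays, and the source of the offset was not tested. An offset common to all arrays cancels in the difference between groups. The second Nr3c1 probe read below 0 in occlusion 3 (-0.11) and in control 3 (-0.040). By Pearson correlation, the genes whose ratios most resembled those of Nr3c1 over 8 animals were Lsp1 (r = 0.97), Or8k27 (r = 0.96) and Gask1a (r = 0.95), among 13056 genes with a symbol measured on all arrays. They were picked as the highest of that many correlations over only 8 animals, were not tested, and are a description.

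Nr3c2 encodes the mineralocorticoid receptor, which binds aldosterone and, in most neurons, mainly corticosterone. At its representative probe (rn3 chr19:32532891-32532949, minus strand) the ratio was 0.12, -0.20 and -0.085 in occluded rats 1, 3 and 4, the spot of rat 2 having been dropped as an outlier, and -0.33, -0.051, 1.38 and -0.17 in control rats 1 to 4. Control 3 was well above all other animals, and the other 6 lay close together. The Cy5 intensity of control 3 was 4623, against 939 to 1564 on the other arrays with a value, while the pool's Cy3 intensity on these arrays was between 725 and 883. The difference was -0.26 ± 0.39 (SE; adjusted p = 0.974 in limma) with 8 animals, and 0.13 (95% confidence interval -0.13 to 0.39) without control 3. The sign of the Nr3c2 difference therefore rested on that animal. A second Nr3c2 probe (rn3 chr19:32592069-32592128) was well above background on 1 array only, that of a control, and was not tested. Its ratios ran against those of the first probe (r = -0.60 over 7 animals), with the lowest, -0.29, in control 3, where the first probe read 1.38. On that array both dyes of the second probe were brighter than elsewhere, with Cy5 at 166 against 85.4 to 95.5 and the pool's Cy3 at 137 against 74.4 to 89.3.

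Gria3, an AMPA receptor subunit gene, Pilra and Rgs10 came closest to Nr3c2, with r of 0.99 each over 7 animals. These genes were picked in the same way and were not tested either. Leaving out control 3 and control 1, the 2 animals farthest from the median of Nr3c2, left r at 0.99 for Gria3, 0.83 for Pilra and 0.74 for Rgs10. Within each animal, Nr3c2 minus Nr3c1 averaged -0.36 ± 0.18 (SD, n = 3) in occluded and -0.091 ± 0.90 (SD, n = 4) in control rats. The difference was -0.27 (exact permutation p = 0.971), and control 3 was highest, at 1.26, against -0.61 to -0.16 in the other animals with a value. As the zero point of the Nr3c1 ratio is offset, the sign of these within-animal values does not show which receptor is more abundant.

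Fkbp5 encodes a co-chaperone of the receptor complex that is induced by glucocorticoids and in turn lowers receptor affinity for hormone. Its representative probe read 0.29, 0.33, -0.013 and -0.51 in occluded rats 1 to 4, and -0.026, -0.56, 0.56 and -0.29 in control rats 1 to 4. Each group thus held animals on both sides of the pool, with the highest value in control 3 and the lowest in control 2. The difference was 0.11 ± 0.26 (SE; 95% confidence interval -0.49 to 0.70; limma adjusted p = 0.984). Without control 2 it turned to -0.056, and without control 3 it was 0.32. The 3 Fkbp5 probes (rn3 chr20:6647588-6647647, chr20:6638510-6638569 and chr20:6637827-6637886, minus strand) correlated with r of 0.94 to 0.97 over the 8 animals on arrays that they share. All 3 gave positive differences, 0.27, 0.083 and 0.11, with standard errors of 0.25 to 0.31.

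Tsc22d3 encodes GILZ, a leucine zipper protein that carries anti-inflammatory effects of glucocorticoids. Its representative probe (rn3 chrX:128409997-128410056, minus strand) read 0.013, -0.14, 0.60 and -0.37 in occluded rats 1 to 4, and 0.33, -0.73, -0.42 and -0.34 in control rats 1 to 4. Occlusion 3 was highest and control 2 lowest, and control 1 lay among the upper occluded animals. The difference of 0.31 ± 0.26 (SE; 95% confidence interval -0.27 to 0.90; limma adjusted p = 0.974) was the largest positive one among the 10. It was 0.27 without control 3, 0.12 without occlusion 3, 0.17 without control 2 and 0.52 without control 1. Occlusion 3 also had the highest mean over 5 choroid plexus and ependyma markers, 0.74, against -0.63 to -0.23 in the other occluded and -1.24 to -0.51 in the control rats, and the part of such tissue in the Tsc22d3 values was not tested. A second probe (rn3 chrX:128411310-128411369) moved with the first (r = 0.92), but its difference was 0.036 ± 0.13 (SE).

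Sgk1 encodes a serine kinase that is induced by both receptors and that holds the epithelial sodium channel at the membrane. Its probe (rn3 chr1:23504663-23504722, minus strand) read 0.48, -0.093, -0.42 and -0.15 in occluded rats 1 to 4, and -0.74, -0.036, -0.099 and -0.071 in control rats 1 to 4. Control 1 was far below the other controls, which lay within the occluded range. The difference was 0.19 ± 0.22 (SE; adjusted p = 0.974 in limma), or 1.14-fold (95% confidence interval of the fold 0.811 to 1.60). It was 0.24 without control 3, 0.32 without occlusion 3, 0.013 without occlusion 1 and 0.022 without control 1, so its size rested on those last 2 animals. The array of control 1 had 853 outlier spots, against 136 to 423 on the others. It had 68.3% of spots well above background in Cy5, against 74.8 to 80.2%. The part of array quality in the values of control 1 was not tested. Occlusion 1, the highest for Sgk1, also had the highest mean over 6 oligodendrocyte markers, 0.20, against -0.47 to -0.28 in the other occluded and -0.52 to -0.14 in the control rats, and their part in the Sgk1 values was not tested.

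Pdk4 encodes a kinase that shuts pyruvate dehydrogenase and so spares glucose, and it rises with fasting and glucocorticoids in many tissues. Its probe (rn3 chr4:30283045-30284933, minus strand, a mapped span of 1889 bases) read 0.19, -0.016, -0.0065 and 0.041 in occluded rats 1 to 4, and -0.73, 0.19 and 0.035 in control rats 1, 3 and 4, the spot of control 2 having been dropped as an outlier. Only control 1, whose array had the most outlier spots, was low. Its Cy5 intensity was nevertheless the highest of the arrays, at 233 against 121 to 210, and it was the pool's Cy3 intensity, at 260 against 97.2 to 164, that was higher. The Pdk4 signal was dim, with a Cy5 background of 52 to 65.5. The difference was 0.22 ± 0.21 (SE; adjusted p = 0.974 in limma), and it was 0.40 without control 3, but it turned to -0.059 without control 1 and to -0.0079 when Cy5 alone was analysed.

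Zbtb16 encodes the zinc finger repressor PLZF, strongly induced by glucocorticoids in several human and rodent cell types. Its representative probe (rn3 chr8:51953559-51953618, minus strand) read 0.23, -0.32, -0.076 and -0.22 in occluded rats 1 to 4, and 0.031, -0.45, 0.70 and -0.17 in control rats 1 to 4. Control 3 was highest and control 2 lowest, and the other controls lay within the occluded range. The difference was -0.12 ± 0.23 (SE; adjusted p = 0.978 in limma), and it was 0.10 without control 3. The signal was dim, with Cy5 intensities of 227 to 665 over a background of 52 to 61. A second probe (rn3 chr8:52110317-52110376) had a difference of 0.016 ± 0.12 (SE) and followed the first with r = 0.83.

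Klf9 encodes a zinc finger factor that binds GC-rich promoters and is induced by corticosteroids and thyroid hormone in brain. Its representative probe (rn3 chr1:226609648-226609707, plus strand) read -0.41, 0.059, -0.62 and -0.30 in occluded rats 1 to 4, and -0.45, -0.42, 0.27 and -0.15 in control rats 1 to 4. Occlusion 3 was lowest and control 3 highest. The difference was -0.13 ± 0.19 (SE; limma adjusted p = 0.974), and it was 0.021 without control 3. A second probe (rn3 chr1:226585750-226585809) had a difference of -0.055 ± 0.082 (SE) and followed the first with r = 0.60.

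Errfi1 encodes Mig6, a feedback inhibitor of the epidermal growth factor receptor that is also induced by glucocorticoids. Its probe (rn3 chr5:168035908-168035967, plus strand) read 0.23, -0.028, -0.087 and -0.28 in occluded rats 1 to 4, and -0.26, -0.35, 0.13 and -0.35 in control rats 1 to 4. Controls 1, 2 and 4 lay below occlusion 1, 2 and 3, and control 3 lay above all occluded rats but occlusion 1. The difference was 0.17 ± 0.14 (SE; adjusted p = 0.974 in limma), or 1.12-fold (95% confidence interval 0.902 to 1.40). Without control 3 it was 0.28 (0.024 to 0.54), with an unadjusted p of 0.036 and an adjusted p of 0.917 in limma, and 4.21% of all genes had an unadjusted p under 0.05 in that comparison. It was 0.078 without occlusion 1. Errfi1, Tsc22d3 and Sgk1 kept their sign under every alternative, though not their size.

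Hsd11b1 encodes the enzyme that regenerates active corticosterone from its inactive form inside the cell. It read -0.28, -0.24, -0.23 and 0.056 in occluded rats 1 to 4, and -0.41, -0.21, 0.63 and -0.12 in control rats 1 to 4. Control 3 was highest and occlusion 4 stood above its own group. The difference was -0.15 ± 0.21 (SE; adjusted p = 0.974 in limma), and it was 0.073 without control 3. The 2 Hsd11b1 probes (rn3 chr13:109252728-109252787 and chr13:109252982-109253041) moved together with r = 0.96, and the first of them, which was not the representative one, had a difference of -0.17 ± 0.16 (SE).

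The arrays lay on 2 slides, each with animals of both groups. With slide as a block the differences of the 10 genes ranged between -0.17 (Nr3c2) and 0.31 (Tsc22d3), with limma adjusted p of 0.952 or above. Tsc22d3 was 0.31 on slide 1 and 0.31 on slide 2, Sgk1 0.28 and 0.099, Errfi1 0.21 and 0.12, Fkbp5 0.18 and 0.034, Nr3c1 -0.12 and -0.0015, and Klf9 -0.24 and -0.027, each pair in that order. Hsd11b1, at -0.52 on slide 1 and 0.22 on slide 2, and Zbtb16, at -0.31 and 0.060, had opposite signs on the slides. Slide 1 holds control 3. Nr3c2 could be fitted on slide 2 alone (0.049) and Pdk4 on slide 1 alone (-0.024), since each lacks 1 animal.

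**Figure D3:**
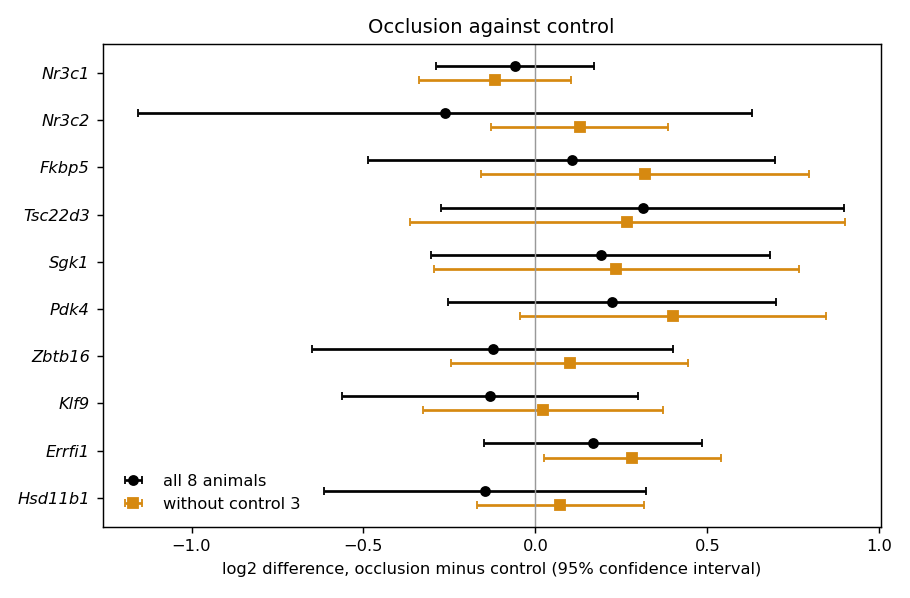
Log2 difference, occlusion minus control, with its 95% confidence interval for each of the 10 genes, drawn for all 8 animals (black circles) and without control 3 (orange squares). Every interval over 8 animals includes 0; without control 3, Nr3c2, Zbtb16, Klf9 and Hsd11b1 lie on the other side of 0 and the Errfi1 interval alone lies above it.

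At the representative probes, animals given the same treatment differed from each other in these genes more than they did in a typical gene. The median within-group SD of the 10 was 0.35, against 0.14 over all genes tested, and 0.24 against 0.12 without control 3. Genes were not matched for signal intensity in this comparison, and the part of intensity in it was not tested. Without control 3, Tsc22d3 (0.47), Sgk1 (0.39) and Fkbp5 (0.35) had within-group SDs above those of 96.1% or more of all genes, while Nr3c1 (0.13) was above 58.2%. At these probes, the receptor gene itself varied about as much as the median gene, and several of its targets varied much more. With control 3 included, the second Tsc22d3 probe had SDs of 0.16 (occluded) and 0.24 (control), against 0.41 and 0.45 at the first. The second Klf9 probe had 0.074 and 0.13, against 0.28 and 0.33. These second probes were dimmer, with median Cy5 intensities of 1131.9 against 36317.5 for Tsc22d3 and 575.2 against 10181.9 for Klf9. The other Fkbp5 probes were dimmer too, at 741.2 and 3328.2 against 8072.3, but had SDs of 0.40 to 0.53. The Nr3c1 value is a mean of 10 spots, while those of Tsc22d3, Sgk1 and Fkbp5 come from 1 spot. The share of this spread that is technical was not tested beyond the spot and probe comparisons given above.

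**Figure D4:**
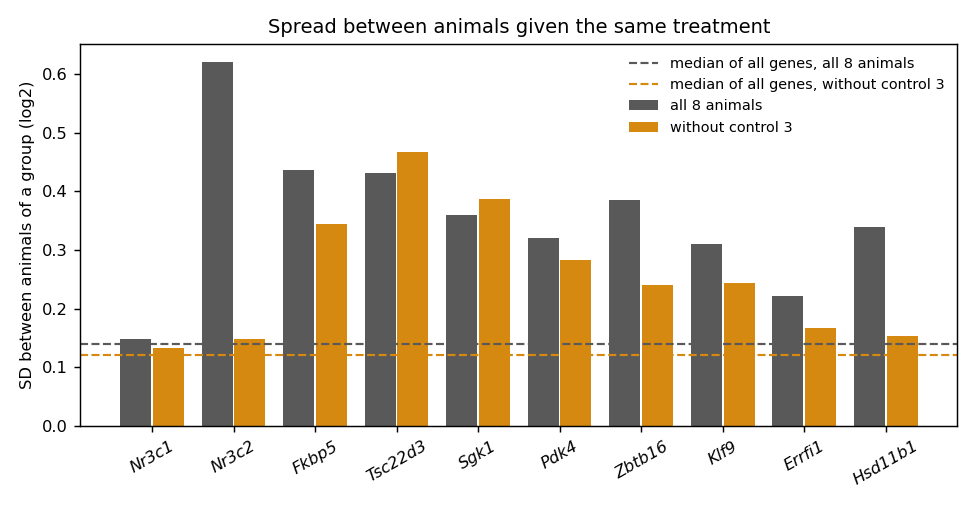
Within-group SD of the log2 ratios for the 10 genes over 8 animals (grey) and without control 3 (orange), with the median of all genes tested as dashed lines in the same colours. Nr3c1 sits near the median of all genes in both, whereas Tsc22d3, Sgk1 and Fkbp5 stand well above it in both.

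Of the 10 genes, 5 were highest in control 3 (24.4% of all genes were) and 0 were lowest there (24.3%). Hsd11b2, the enzyme that inactivates corticosterone and guards the mineralocorticoid receptor in aldosterone target cells, was at -2.04 in control 3, against -0.11 to 0.37 in the other animals. Nr3c2 and Hsd11b1 were highest in the same animal, at 1.38 and 0.63. Cortical and relay marker means moved with these genes in control 3, as given above, and the part of tissue composition in the values of Nr3c2, Hsd11b1 and Hsd11b2 was not tested. The Hsd11b2 difference between groups was 0.61 ± 0.46 (SE; adjusted p = 0.974 in limma), and it fell to 0.064 without control 3.

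**Figure D5:**
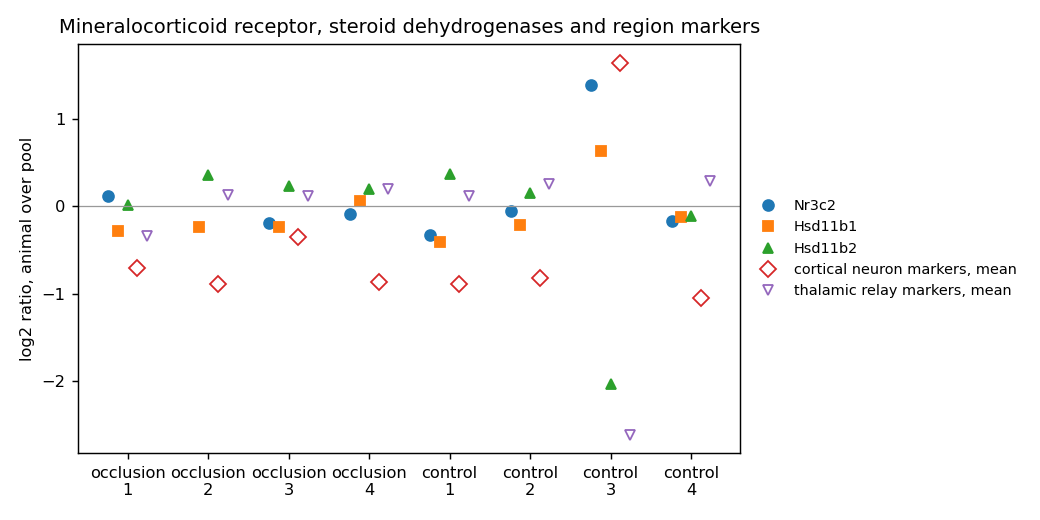
Log2 ratio over the pool in each animal for Nr3c2, Hsd11b1 and Hsd11b2 (filled symbols) and the means of the cortical neuron and thalamic relay markers (open symbols), with occlusion animals at the left. Control 3 is the animal in which Nr3c2, Hsd11b1 and the cortical markers are high and Hsd11b2 and the relay markers are low.

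Over the 7 animals other than control 3, 44 pairs of the genes had values in at least 6 animals, 28 of them with a positive and 16 with a negative r. Nr3c2 and Sgk1 had r = 0.96 and rho = 0.94 over 6 animals (permutation p = 0.00694 for r and 0.0167 for rho; adjusted over 44 pairs 0.306 and 0.367), and r was 0.67 without the 2 farthest, occlusion 1 and control 1. Fkbp5 and Errfi1 had r = 0.83 and rho = 0.93 over 7 animals (permutation p = 0.0177 and 0.00675; adjusted 0.389 and 0.297), and r was 0.85 without the 2 farthest. Nr3c1 and Fkbp5 ran in opposite directions, with r = -0.79 and rho = -0.75 over 7 animals (permutation p = 0.0319 and 0.0663; adjusted 0.469 and 0.470), and r was -0.75 without the 2 farthest. No pair passed after adjustment, so these relations are descriptions.

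The promoters of the Fkbp5 and Errfi1 pair are shown because they had the most alike ratios among genes measured in all 7 animals. They are the 250 bases before the start of the gene in RefSeq, build GRCr8 (Fkbp5 chr20:6543556-6543805, minus strand; Errfi1 chr5:166606591-166606840, plus strand), 5′ to 3′, with the GC box GGGCGG in capitals.
Fkbp5: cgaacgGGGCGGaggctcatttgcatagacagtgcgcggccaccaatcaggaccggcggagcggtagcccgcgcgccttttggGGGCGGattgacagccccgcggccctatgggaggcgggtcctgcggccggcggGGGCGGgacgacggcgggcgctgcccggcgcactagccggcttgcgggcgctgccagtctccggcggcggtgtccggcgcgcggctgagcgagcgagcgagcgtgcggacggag
Errfi1: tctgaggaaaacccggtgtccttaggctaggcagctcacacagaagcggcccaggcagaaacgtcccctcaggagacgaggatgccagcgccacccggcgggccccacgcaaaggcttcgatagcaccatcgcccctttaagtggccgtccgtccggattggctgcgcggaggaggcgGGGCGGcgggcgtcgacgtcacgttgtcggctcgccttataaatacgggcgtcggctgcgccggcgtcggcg
RefSeq windows from 250 bases before to 50 bases after a start were held for 7 of the genes, 12 in all, and 4 motifs were searched in them on both strands. The glucocorticoid half-site AGAACA was in 0 of the 12 and in 20.7% of 33469 promoters of the same length, and the palindromic element (AGAACA, then 3 bases of any kind, then TGTTCT, which holds the half-site) was in 0 and in 0.0149%. The cyclic AMP element TGACGTCA was in 0 and in 1.83%. The GC box was added after those searches gave 0, and it was in 9 of the 12 windows and in 33.1% of all promoters. Several windows belong to the same gene, so the 12 are not independent. Their GC content was 40.7 to 79.0%, and the share of all promoters was not matched for it, so no enrichment can be read from these counts. No match says only that these letters are absent from these windows.

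Other genes of the pathway gave no call either. Of 14 tested receptor chaperones and cofactors, 4 were higher and 10 lower (median -0.030), of 5 genes of steroid delivery and metabolism 4 were higher and 1 lower (0.027), and of 22 other glucocorticoid-induced genes 13 were higher and 9 lower (0.015). Of 8 stress axis genes 5 were higher and 3 lower (0.17), and of 11 genes of mineralocorticoid-regulated sodium transport 6 were higher and 5 lower (0.021). The stress axis median ranged between 0.0072 and 0.26 with 1 animal left out. In limma, 0 genes of any of these lists passed the adjusted threshold.

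Ppp5c, a phosphatase that sits in the receptor complex, was between -0.47 and -0.38 in occluded and between -0.33 and -0.25 in control rats, so the groups did not overlap, with a difference of -0.15 ± 0.056 (SE; limma adjusted p = 0.974). It was -0.041 when the mean over its probes was used. Lcn2, a lipocalin induced by glucocorticoids and by inflammation, also had groups that did not overlap, as did 2.53% of all genes, between -0.072 and 0.12 in occluded and between -0.40 and -0.098 in control rats. Its difference was 0.23 ± 0.086 (SE; adjusted p = 0.974 in limma). Hsp90aa1, the inducible HSP90 that holds the receptor ready for hormone, had a difference of 0.25 ± 0.13 (SE), which was 0.13 without occlusion 1, 0.47 on slide 1 and 0.023 on slide 2. Crh, the hypothalamic releasing peptide that starts the stress axis, had a difference of -0.49 ± 0.26 (SE), which was -1.05 on slide 1 and 0.077 on slide 2. Dusp1 and Per1, targets that respond within an hour of hormone, had differences of -0.089 ± 0.21 and -0.014 ± 0.074 (SE). Gjb6 (0.29), Avpr1a (0.32), Wnk1 (0.15), Nedd4l (-0.32), Srd5a1 (0.029) and Pgr (-0.089) had log2 differences with adjusted p of 0.974 or above. On slide 1 and slide 2 in that order, Avpr1a had 0.60 and 0.028, Gjb6 0.47 and 0.12, Wnk1 0.26 and 0.045, and Nedd4l -0.70 and 0.063.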

How the data were processed

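Medial thalamus RNA of 8 rats was hybridised to 2-colour rat arrays, animals in Cy5 and a pool of all 8 in Cy3. Per the file headers, the authors extracted the scans with Agilent Feature Extraction 9.5.1.1, and the array design uses build rn3. The deposited intensity values are linear spot signals with local background, and the deposited log10 ratio of Cy5 over Cy3 is the software's own.

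Intensities were corrected by normexp (offset 50) and loess-normalised in limma 3.58.1 (R 4.3.3). Control and outlier spots had weight 0, outliers were dropped, and spots of a probe were averaged. Probes well above background on at least 4 of 8 arrays with at least 2 values a group were kept. The brightest probe represented a gene. Occlusion was compared with control by lmFit and eBayes, with Benjamini-Hochberg adjustment over 26981 genes. The number of arrays limits precision, and each array is a different rat.

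Slide 1 held occlusion 1 and 2 with control 3 and 4, and slide 2 the rest. Members, gene lists and tests were chosen with earlier results of these data known. All members were named, with up to 2 genes a list by smallest p, and Dusp1 and Per1. 1 gene named by this rule and the list that holds it are not reported here. The fit was tested on simulated data. Figures were drawn with matplotlib 3.10.9.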

Additional observations from a re-analysis of the deposited data

Results flagged for a closer look

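An animal was marked where its gap to the nearest of its group was large for the group's range. Chance marks about 1 in 20 such checks, or 3.95 of the 79 made here, and 9 were marked, of which 6 were control 3. The checks share arrays and genes, and the lists were chosen with earlier results of these data known. No excess over chance can therefore be read from the 9. Of the genes themselves, Nr3c2 in control 3 stood at 1.38, above its group's other values of -0.33 to -0.051. Sgk1 in control 1 stood at -0.74, below -0.099 to -0.036. Hsd11b1 in occlusion 4 stood at 0.056, above -0.28 to -0.23. Nr3c2 minus Nr3c1 in control 3 was 1.26, against -0.61 to -0.41 in the other controls.

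The remaining marks were list means. The steroid delivery mean in control 3 was -0.44. The thalamic relay mean was -0.34 in occlusion 1 and -2.61 in control 3. Control 3 also had a cortical neuron mean of 1.64 and a meningeal mean of 0.87.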

How the results depend on the processing

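No gene passed the adjusted threshold under 21 of 22 alternatives. Without control 3, 1 gene passed (Bcl3, higher after occlusion, limma adjusted p = 0.0345), and it is none of the 10 genes and is named here after its value was seen. Leaving out 1 animal at a time gave 0 to 1 genes. Nr3c2 minus Nr3c1 was 0.050 on slide 2 alone and ranged between -0.44 and 0.18 with 1 animal left out. The median of the 10 genes ranged between -0.063 and 0.18 with 1 animal left out. The count at an unadjusted p under 0.05 was 282 with median centring and 1349 with array weights, and 488 to 1440 with 1 animal left out. Among the 10 genes, Tsc22d3 reached such a p on slide 1 alone and without control 1, and Errfi1 with array weights and without control 3.

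Tsc22d3, Sgk1 and Errfi1 kept their sign under all 22 alternatives but not their size, with 0.12 to 0.52, 0.013 to 0.32 and 0.078 to 0.28, in that order, when 1 animal was left out. Slide 2 alone turned Nr3c2 (0.049), Zbtb16 (0.060), Hsd11b1 (0.22), Hsd11b2 (-0.045), Srd5a1 (-0.11), Crh (0.077), Nedd4l (0.063), Dusp1 (0.059) and Per1 (0.027). Slide 1 alone turned Pdk4 (-0.024). Cy5 alone turned Pdk4 (-0.0079) and Srd5a1 (-0.064), and array weights Zbtb16 (0.059), Srd5a1 (-0.041) and Per1 (0.037). The software's ratios turned Srd5a1 (-0.0040), median centring Per1 (0.029), and the mean over probes Srd5a1 (-0.014). With 1 animal left out, values ranged between -0.12 and 0.0041 for Nr3c1, -0.44 and 0.13 for Nr3c2, -0.056 and 0.32 for Fkbp5, -0.059 and 0.40 for Pdk4, -0.28 and 0.10 for Zbtb16, -0.26 and 0.021 for Klf9, -0.27 and 0.073 for Hsd11b1, -0.064 and 0.081 for Srd5a1, -0.24 and 0.075 for Dusp1, and -0.064 and 0.021 for Per1. Causes were not tested. Same-numbered rats of the 2 groups had correlations of deviations of -0.13, 0.14, 0.026 and 0.083, and no occluded rat correlated best with the control of its number. So few values cannot settle whether the numbers pair animals. The replicate block gave 0 genes past the threshold, a smallest adjusted p of 0.997, and changed no call. Slide 1 alone gave no value for Nr3c2 or the receptor difference, slide 2 alone none for Pdk4, and array weights were not run for the receptor difference. Control 3 and 4 animals a group limit the comparisons.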
